A study of Homo sapiens with 6 samples.

Results

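The adhesion G protein-coupled receptors are a family of membrane receptors with very long extracellular regions, and 10 of its genes were described in MDA-MB-231 cells after knockdown of VASP. The 10 genes, among 61155 gene symbols in the deposited count table, were ADGRF1, ADGRF4, ADGRF5, ADGRE5, ADGRG1, ADGRG6, ADGRL1, ADGRL2, ADGRL4 and ADGRA3. They were taken by symbol and selected on the fold changes and calls of this same comparison, which were known beforehand, so their differences between groups are given as a description and carry no test. The table held 33 genes of the family in all. MDA-MB-231 is an established line of triple-negative, mesenchymal-like breast cancer cells, and VASP is an actin-binding protein that helps filaments grow in protrusions and focal adhesions. RNA was sequenced from 3 libraries of cells with VASP knockdown and from 3 control libraries, harvested 48 hours after transfection. Sample titles name an shRNA against VASP and the plko vector, whereas the other labels name a VASP siRNA and a negative control siRNA given by transient transfection, and which reagent was used cannot be told from the labels. A single targeting reagent is named, with no second reagent and no rescue.

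Receptors of this family carry an extracellular domain that, in most members, cuts the protein next to the membrane, leaving a long outer fragment bound to the membrane-spanning fragment. The outer fragment binds proteins of the matrix or of neighbouring cells, and its displacement exposes a short tethered peptide that activates G proteins. Several members are known to respond to mechanical force at cell contacts. In bulk RNA, fewer cells making a transcript and less of it per cell cannot be told apart.

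The 6 libraries held between 28856610 and 30055503 counted fragments, so that 3 fragments, the floor used here, amounted to 0.0978 to 0.104 CPM, the unit of counts scaled to library size. VASP itself had 396, 379 and 360 fragments in the knockdown libraries, against 4544, 5036 and 4708 in the control libraries. That is 12.7 ± 0.355 CPM with knockdown and 164 ± 9.04 CPM in control (SD, n = 3 each), a log2 fold change of -3.69 (SE 0.06, edgeR adjusted p = 8.3e-24). Of 16633 genes tested, 37.2% passed an adjusted p of 0.05, with 18.9% higher and 18.3% lower after knockdown. VIM, CD44, AXL, CAV1 and FN1, which mark this line, were abundant in every library, although FN1 was lower after knockdown, at 973 ± 53.0 CPM against 1726 ± 268 CPM in control (SD, n = 3 each; adjusted p = 4.8e-05). The 5 genes summed to 5260 to 5416 CPM with knockdown and 6067 to 6458 CPM in control. Of 5 genes known to be low in the line, PGR and CDH1 were at 3 fragments or fewer in every library, and ESR1 and GATA3 averaged under 1 CPM in both groups. ERBB2 was present, at 97.8 ± 3.70 CPM with knockdown and 107 ± 2.09 CPM in control (SD, n = 3 each), and passed as lower (adjusted p = 0.035), but not after correction for GC content and length. The part of these differences in the receptors' values was not tested. Of 10 endothelial marker genes, 6 had 10 or fewer fragments in every library, EMCN being at 0, and the summed level of the list was 240.2 to 244 CPM with knockdown and 234 to 252 CPM in control, most of it ESAM. PECAM1 of this list was lower, at 2.05 ± 0.311 CPM with knockdown and 2.82 ± 0.315 CPM in control (SD, n = 3 each; adjusted p = 0.026). A maximum of 10 fragments in every library also held for 9 of 10 leukocyte markers, whose sum was 1.77 to 3.38 CPM and 2.63 to 3.10 CPM, and for 5 of 7 fibroblast markers, whose sum was 6.64 to 7.21 CPM and 6.15 to 7.48 CPM, knockdown given first in both.

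Of the 10 receptors, 8 had enough fragments to be tested, and ADGRL1 and ADGRL4 did not. The smallest count of a tested receptor in any library was 14, and the largest count of an untested one was 4. With 37.2% of all tested genes as background, 5 of the 8 tested receptors passed the threshold. ADGRG6 was higher, and ADGRF1, ADGRF5, ADGRE5 and ADGRL2 were lower, after knockdown. The contrast that gives this count is the one known when the genes were chosen, so nothing is read from it. The sizes fell into separate ranges. ADGRF1 and ADGRF5 lay beyond a log2 fold change of -1, which 0.902% of tested genes reached on the lower side, and 1.32% on either side, with an adjusted p under the threshold. The other 3 that passed lay within 0.25 of zero. The median log2 fold change was -0.13 over the 8 tested receptors and -0.01 over all tested genes.

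**Figure D1:**
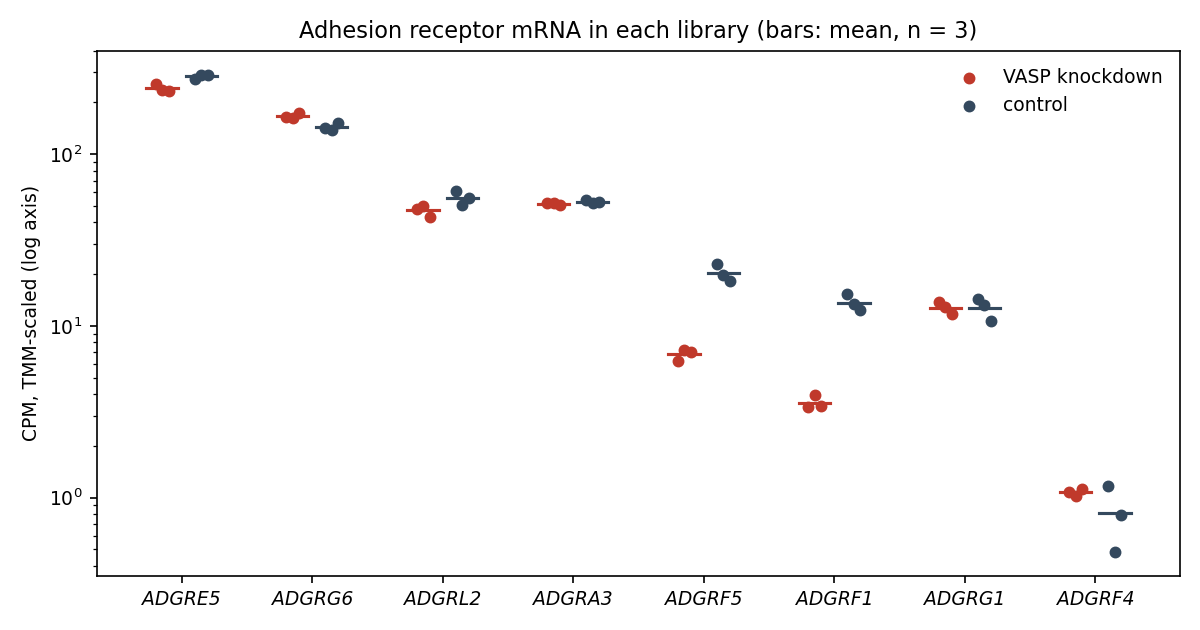
Level of the 8 tested receptors in each library, in CPM scaled by the trimmed mean of M values on a log axis. Points are single libraries, with VASP knockdown left of control for each gene, and bars are group means (n = 3 each). ADGRF1 and ADGRF5 are the genes whose groups lie far apart.

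ADGRF1, ADGRF5 and ADGRF4 belong to one subfamily and lie in a cluster on the short arm of chromosome 6. On GRCh38, ADGRF5 (ENSG00000069122) lies at chr6:46852522-46954943 and ADGRF1 (ENSG00000153292) at chr6:46997708-47042350, both on the minus strand and 42.8 kb apart. ADGRF4 (ENSG00000153294) lies at chr6:47685864-47722021 on the plus strand, 643.5 kb beyond ADGRF1. Their RefSeq promoter sequences (GRCh38.p14) are shown because the adjacent pair was much lower after knockdown while the third gene was not. Each line holds the 250 bases before an annotated start, 5′ to 3′ on the gene's strand, at chr6:47042333-47042582 for ADGRF1, chr6:46954940-46955189 for the first of the annotated starts of ADGRF5, and chr6:47698330-47698579 for ADGRF4. The ADGRF4 start lies inside the span that the deposited table gives for the gene. Capitals mark matches, on either strand, to the TEAD word GGAATG or the AP-1 word TGANTCA.
ADGRF1: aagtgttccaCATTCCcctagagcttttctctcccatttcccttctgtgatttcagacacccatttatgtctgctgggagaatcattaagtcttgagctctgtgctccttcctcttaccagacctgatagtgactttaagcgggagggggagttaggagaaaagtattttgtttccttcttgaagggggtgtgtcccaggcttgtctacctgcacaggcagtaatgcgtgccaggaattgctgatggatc
ADGRF5: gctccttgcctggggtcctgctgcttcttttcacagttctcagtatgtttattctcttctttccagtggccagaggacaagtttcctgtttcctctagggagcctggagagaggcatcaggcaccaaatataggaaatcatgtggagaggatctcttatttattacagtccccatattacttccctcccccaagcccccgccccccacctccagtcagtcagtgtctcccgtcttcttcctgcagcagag
ADGRF4: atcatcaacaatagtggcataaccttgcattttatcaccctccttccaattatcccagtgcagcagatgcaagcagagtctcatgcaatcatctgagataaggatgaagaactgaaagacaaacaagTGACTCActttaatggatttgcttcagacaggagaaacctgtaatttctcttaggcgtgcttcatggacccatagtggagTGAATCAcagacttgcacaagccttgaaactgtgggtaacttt

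The ADGRF1 promoter held the TEAD word on the opposite strand, 240 to 235 bases before the start. In ADGRF4 the AP-1 word stood at 123 to 117 and at 43 to 37 bases before the start. No word matched at the ADGRF5 start shown or at its other annotated start, and the CArG box, the binding sequence of serum response factor, matched at none of them. Over 35116 RefSeq promoters of the same length, 11.9% held the TEAD word, 6.57% the AP-1 word and 1.16% the CArG box, and a match describes letters only. The matches shown did not overlap one another. Of the 10 receptors, 8 had a promoter entry.

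ADGRF1, also called GPR110, is a receptor for synaptamide, an amide of docosahexaenoic acid, and raises cyclic AMP through the stimulatory G protein. It had 103, 117 and 100 fragments in the knockdown libraries, against 446, 388 and 357 in the control libraries. The corresponding levels were 3.36, 3.96 and 3.41 CPM with knockdown and 15.3, 13.4 and 12.3 CPM in control. Every knockdown library was far below every control library, and the gap between the groups was wider than the spread within either. Over all tested genes, the groups did not overlap in 47.6%, with knockdown lower in 23.5% and higher in 24.1%. The means were 3.57 ± 0.334 CPM and 13.7 ± 1.49 CPM (SD, n = 3 each), knockdown first, which was 3.82-fold lower after knockdown. On the log2 scale the difference was -1.94 (SE 0.11, 95% interval -2.16 to -1.71).

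ADGRF5, also called GPR116, is known from mouse lung, where it restrains the pool of surfactant. It had 192, 214 and 207 fragments with knockdown, against 665, 571 and 530 in control. As levels these were 6.26, 7.24 and 7.05 CPM with knockdown and 22.8, 19.7 and 18.3 CPM in control, so the groups were again well apart. The mean was 6.85 ± 0.519 CPM with knockdown and 20.3 ± 2.29 CPM in control (SD, n = 3 each), 2.96-fold lower after knockdown. The log2 fold change was -1.57 (SE 0.09, 95% interval -1.76 to -1.38). Among control libraries, both genes were highest in the first and lowest in the third. Fragments of ADGRF1 per fragment of ADGRF5 numbered 0.536, 0.547 and 0.483 with knockdown, against 0.671, 0.679 and 0.674 in control. This ratio of the adjacent genes was therefore lower in each knockdown library than in any control library, and it varied by little among the controls. Both genes were selected on this comparison, and the share of gene pairs whose ratio separates the groups was not computed. Nothing is read from the separation.

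ADGRF4, also called GPR115, is an orphan receptor found in epithelia. It had 33, 30 and 33 fragments with knockdown, against 34, 14 and 23 in control, the fewest of the tested receptors. The groups overlapped, with the knockdown libraries close together and the first control library above them all. The mean was 1.07 ± 0.0545 CPM with knockdown and 0.814 ± 0.342 CPM in control (SD, n = 3 each). The log2 fold change was 0.39 with an SE of 0.26 and a 95% interval of -0.14 to 0.92, so at this depth a difference in either direction of modest size was not detectable. Leaving out 1 control library decided the value, which was 0.74 without the first, where it passed the threshold, and 0.13 without the second. Its exons share 77 bases with ADGRF2, which had 0 fragments in every library.

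ADGRE5, or CD97, binds CD55, a membrane protein that protects cells from complement, and is best known from leukocytes. It lies at chr19:14380501-14408725 on the plus strand (ENSG00000123146), and 252 of its exon bases are shared with AC008569.1. It was the most abundant of the receptors, with 7872, 7004 and 6863 fragments after knockdown, against 8033, 8398 and 8409 in control. Its level was 257, 237 and 234 CPM with knockdown and 275, 289.6 and 291 CPM in control, and the groups did not overlap. Of all tested genes, 23.5% were likewise lower without overlap. The mean was 242 ± 12.5 CPM with knockdown and 285 ± 8.59 CPM in control (SD, n = 3 each), a log2 fold change of -0.23 (SE 0.05). The gene is GC-rich, with 58.3% G or C in its longest transcript. Genes in its GC decile had a median log2 fold change of -0.13, and after correction for GC content and length the value for ADGRE5 was -0.12 and no longer passed the threshold.

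ADGRG6, or GPR126, is required in Schwann cells of fish and mice for myelination, and is known to bind type IV collagen, laminin-211 and the prion protein. It lies at chr6:142301854-142446266 on the plus strand (ENSG00000112414), far from the ADGRF cluster on the same chromosome. It had 5046, 4798 and 5090 fragments after knockdown, against 4151, 3997 and 4396 in control. In CPM this was 165, 162 and 173 with knockdown and 142, 138 and 152 in control, with every knockdown library above every control library. The same held for 24.1% of all tested genes. The mean was 167 ± 5.81 CPM with knockdown and 144 ± 7.23 CPM in control (SD, n = 3 each), a log2 fold change of 0.21 (SE 0.05). The correction for GC content and length, in a gene of 41.1% G or C, gave 0.12, which still passed the threshold. Genes in its GC decile had a median of 0.12.

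ADGRG1, or GPR56, is a receptor for collagen III and the transglutaminase TGM2, is known to activate the G proteins encoded by GNA12 and GNA13, and is mutated in a human malformation of the cerebral cortex. It lies at chr16:57610652-57665580 on the plus strand (ENSG00000205336). It had 420, 380 and 345 fragments with knockdown, against 417, 385 and 308 in control. The groups overlapped throughout, with means of 12.8 ± 0.977 CPM with knockdown and 12.7 ± 1.88 CPM in control (SD, n = 3 each). The 95% interval of the log2 fold change was -0.20 to 0.20.

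The latrophilins ADGRL1 and ADGRL2 bind teneurins and FLRT proteins on neighbouring cells, and ADGRL1 is the receptor of the spider toxin alpha-latrotoxin. ADGRL2 lies at chr1:81306160-81992436 on the plus strand (ENSG00000117114) and had 1478, 1474 and 1261 fragments with knockdown, against 1785, 1461 and 1599 in control. As levels these were 48.2, 49.9 and 42.9 CPM with knockdown and 61.2, 50.4 and 55.3 CPM in control. The groups did not overlap, as in the 23.5% of all tested genes lower without overlap, but the highest knockdown and lowest control library nearly met. The mean was 47.0 ± 3.62 CPM with knockdown and 55.6 ± 5.40 CPM in control (SD, n = 3 each), a log2 fold change of -0.24 (SE 0.07). Without the first control library it was -0.17 and did not pass the threshold. Correction for GC content and length gave -0.33.

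ADGRL1 (ENSG00000072071, chr19:14147743-14206187, minus strand) had 0, 0 and 2 fragments with knockdown, against 0, 1 and 4 in control, and lies 174.3 kb from the abundant ADGRE5. Over the 3 libraries of each group, the ratio of knockdown to control was 0.389, with an exact 95% interval for counting error of 0.0370 to 2.38. The table's annotation places ADGRL1 on 2 sequences, chromosome 19 and the patch ML143376.1. Of 1115 protein-coding genes placed on 2 or more sequences, 71.7% had 10 or fewer fragments over the 6 libraries, against 24.5% of 17729 genes placed on 1 sequence. No level of ADGRL1 in the cells is read from its low count, and the part of the extra sequence in that count was not tested. ADGRL4, or ELTD1, a receptor of endothelial cells in vessels, lies at chr1:78889764-79282124 on the minus strand (ENSG00000162618). It had 1, 1 and 0 fragments with knockdown, against 2, 1 and 1 in control, and a ratio of 0.486 with an interval of 0.0440 to 3.39.

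ADGRA3, or GPR125, is an orphan receptor that takes part in planar cell polarity in zebrafish. It lies at chr4:22345071-22516066 on the minus strand (ENSG00000152990). It had 1593, 1534 and 1491 fragments with knockdown, against 1577, 1498 and 1526 in control. Its means were 51.5 ± 0.665 CPM with knockdown and 52.8 ± 1.20 CPM in control (SD, n = 3 each), and its libraries overlapped between the groups. The 95% interval of its log2 fold change was -0.14 to 0.07, so it leaves room for a small difference in either direction.

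**Figure D2:**
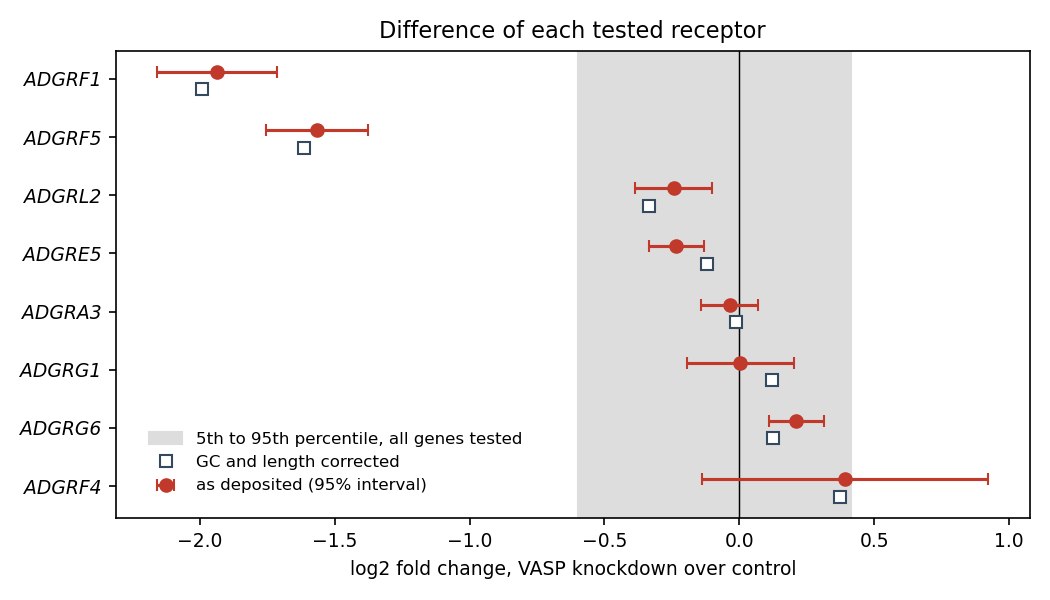
Log2 fold change of each tested receptor, VASP knockdown over control. Filled points are the values from the deposited counts with 95% intervals, open squares are the values after correction for GC content and length, and the grey band runs from the 5th to the 95th percentile of all tested genes (-0.60 to 0.41). ADGRF1 and ADGRF5 lie outside the band under both, and the other 6 points lie inside it.

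Levels were compared between receptors as CPM per kilobase of merged exon. With knockdown, ADGRE5 had 45.0 and ADGRG6 19.7 CPM per kb, followed by ADGRL2 with 6.06, ADGRA3 with 5.56, ADGRG1 with 1.47, ADGRF5 with 1.04, ADGRF4 with 0.316 and ADGRF1 with 0.289. In control, ADGRE5 had 53.0 and ADGRG6 17.0 CPM per kb, followed by ADGRL2 with 7.17, ADGRA3 with 5.70, ADGRF5 with 3.07, ADGRG1 with 1.47, ADGRF1 with 1.10 and ADGRF4 with 0.240. The first 4 places were thus the same in both groups, while ADGRF5 stood below ADGRG1 and ADGRF1 below ADGRF4 with knockdown. Neighbours whose libraries overlapped were ADGRL2 with ADGRA3 and ADGRF4 with ADGRF1 with knockdown, ADGRG1 with ADGRF1 in control, and ADGRL4 with ADGRL1 in both.

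Summed over the 33 family genes, receptor transcripts came to 747, 717 and 702 CPM with knockdown, against 814, 788 and 802 CPM in control. The 10 receptors held 73.0 to 74.6% of these fragments with knockdown and 72.1 to 74.0% in control. Per kilobase, ADGRE5 alone made up 46.9 to 48.5% of the family with knockdown and 48.0 to 51.3% in control. ADGRG6 took a larger share with knockdown, 19.8 to 22.2%, than in control, 15.5 to 16.8%. The ratio of ADGRE5 to ADGRG6 per kilobase was 2.46, 2.30 and 2.12 with knockdown, against 3.05, 3.31 and 3.01 in control. Every knockdown library had less ADGRE5 and more ADGRG6 than any control library. Their ratio therefore had to separate the groups, and nothing further is read from it. Shares and ratios were not corrected for GC content, which is 58.3% for ADGRE5 and 41.1% for ADGRG6. Genes in their GC deciles had median log2 fold changes of -0.13 and 0.12. The corrected log2 fold changes were -0.12 for ADGRE5 and 0.12 for ADGRG6. The part of GC content in the ratio was not tested. ADGRF1, ADGRF4 and ADGRF5 together made up 1.56, 1.83 and 1.81% of the family with knockdown, against 4.72, 4.01 and 3.75% in control.

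**Figure D3:**
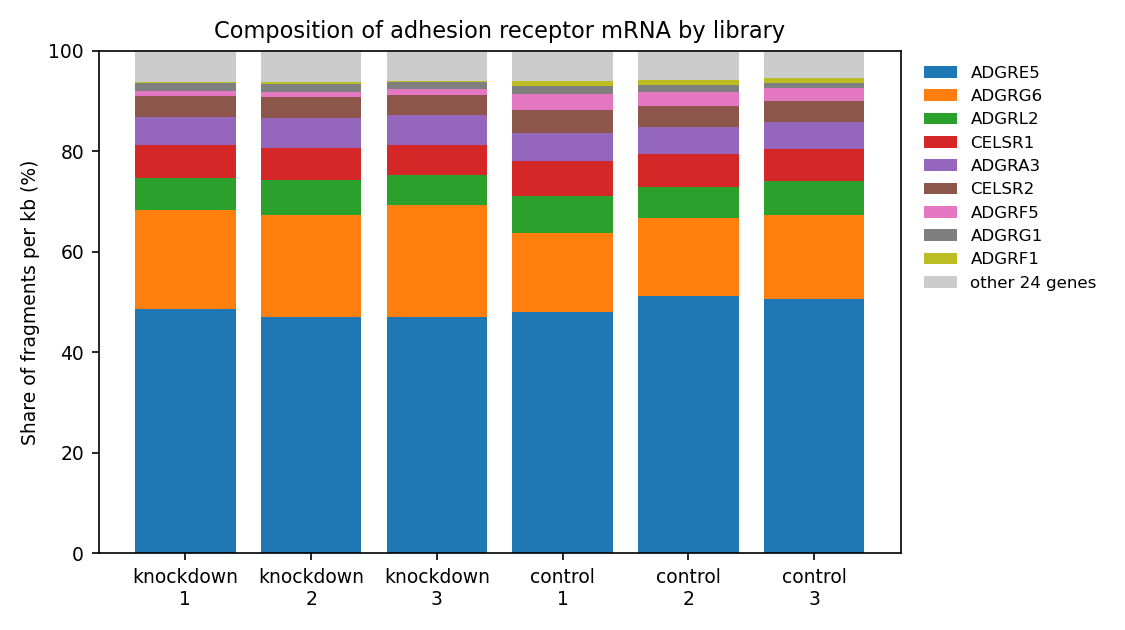
Share of each gene in the adhesion receptor transcripts of a library, per kilobase of exon, with the 3 knockdown libraries left of the 3 control libraries. Colours mark the 9 genes named and grey the other 24 genes of the family. Shares were not corrected for GC content. The ADGRG6 segment is 19.8 to 22.2% with knockdown and 15.5 to 16.8% in control, and the ADGRF5 and ADGRF1 segments are thin with knockdown.

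The other 23 family genes of the table gave the setting for these values. Of these, 12 were tested, 1 was higher and 3 were lower (33.3%, against 37.2% of all genes), with a median log2 fold change of -0.17, and the 11 others had at most 12 fragments in any library. CELSR1 and CELSR2, adhesion receptors with cadherin repeats that act in planar cell polarity, were lower, at 77.6 ± 5.63 and 48.9 ± 3.03 CPM with knockdown against 90.3 ± 4.67 and 58.1 ± 3.35 CPM in control (SD, n = 3 each; edgeR adjusted p = 0.0033 and 0.0016). ADGRB2 was lower, with a log2 fold change of -0.38 (adjusted p = 0.015), and ADGRG2 was higher by 0.57 (adjusted p = 0.030), both at few fragments. The ADGRB2 call was lost without the second control, the second knockdown or the third knockdown library, at -0.36 to -0.34. That of ADGRG2 was lost without the first control, the second control, the first knockdown or the third knockdown library, at 0.45 to 0.60. With the DESeq2 Wald test neither passed (adjusted p = 0.053 for ADGRB2 and 0.11 for ADGRG2). After correction for GC content and length none of the 3 lower genes passed and 2 were higher, ADGRG2 and ADGRD1. The genes that did not pass had log2 fold changes of -0.16 for CELSR3 (adjusted p = 0.050, just over the threshold before rounding), -0.31 for ADGRV1, 0.09 for ADGRD1, -0.08 for ADGRA2, -0.09 for ADGRB1, -0.17 for ADGRB3, -0.23 for ADGRF3 and 0.59 for ADGRE2. ADGRE2 is a close relative of ADGRE5 whose EGF-like domains are nearly identical in sequence, and fragments aligning to both were not counted. It had 16, 14 and 15 fragments with knockdown, against 6, 6 and 17 in control. Without the third control library ADGRE2 passed at 1.27, and CELSR3 passed at -0.20. None of these 12 genes had a log2 fold change as far from zero as those of ADGRF1 and ADGRF5. Those receptors were selected on the fold changes of this comparison, so nothing is read from that difference in size.

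Ligands known for the receptors were counted next. Of 35 genes listed, 22 were tested, 1 was higher and 7 were lower (36.4%, against 37.2% of all tested genes), with a median log2 fold change of -0.12. TGM2, the transglutaminase bound by ADGRG1, averaged 97.0 ± 4.52 CPM with knockdown and 141 ± 9.25 CPM in control (SD, n = 3 each), a log2 fold change of -0.54 (SE 0.05, edgeR adjusted p = 4.6e-08). COL4A2, a chain of the type IV collagen bound by ADGRG6, averaged 159.7 ± 8.01 CPM with knockdown and 224 ± 1.79 CPM in control, a log2 fold change of -0.49 (SE 0.05, adjusted p = 5.2e-08). Correction for GC content and length gave -0.29 for COL4A2. FLRT2, a partner of the latrophilins, fell by 0.22 on the log2 scale (adjusted p = 0.0022), and the laminin chain LAMB1 was higher by 0.23 (adjusted p = 0.0013). The other tested laminin chains of this list were lower. LAMA2 had -0.87 with few fragments (adjusted p = 0.02) and LAMC1 had -0.18 (adjusted p = 0.0086). COL4A1, the other tested type IV collagen chain of this list, was lower at -0.20 (adjusted p = 0.003), but not after the GC correction. CD55, the partner of ADGRE5, averaged 343 ± 10.8 CPM with knockdown and 369 ± 26.3 CPM in control (SD, n = 3 each), which did not pass (adjusted p = 0.12), although it did after the GC correction at -0.20. PRNP, whose product binds ADGRG6, had a log2 fold change of 0.09 (adjusted p = 0.18).

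Among the G protein subunits through which such receptors act, 22 of 26 were tested, 7 were higher and 5 were lower (54.5%, against 37.2% of all tested genes), with a median log2 fold change of 0.02. After correction for GC content and length 6 were higher and 2 lower, while the same correction gave 2850 higher and 1930 lower over all genes, against 3148 and 3039 without it. GNA12 averaged 105 ± 5.77 CPM with knockdown and 148 ± 5.73 CPM in control (SD, n = 3 each), a log2 fold change of -0.50 (SE 0.05, adjusted p = 7.5e-08). GNA13, the closest relative of GNA12, was higher by 0.21 (adjusted p = 0.0031), but not after that correction. GNAO1 and GNAZ, alpha subunits of the inhibitory class, were higher by 0.88 (SE 0.14, adjusted p = 2.8e-05) and 0.73 (SE 0.12, adjusted p = 4.3e-05). Both were scarce, at 4.58 ± 0.377 and 5.35 ± 0.289 CPM with knockdown against 2.49 ± 0.368 and 3.23 ± 0.0936 CPM in control. GNB2 was lower, with a log2 fold change of -0.35 (adjusted p = 9.1e-06), a call lost after the GC correction at -0.11. GNAS, the stimulatory subunit, had a log2 fold change of 0.02 (adjusted p = 0.80), or 0.16 after the correction, where it passed.

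For regulators and effectors, 27 of 31 genes were tested, 3 were higher and 6 were lower (33.3%, again against 37.2%), with a median log2 fold change of -0.01. With the GC correction 8 were higher and 3 lower, a shift toward higher calls that was also seen over all genes (59.6% of calls higher, against 50.9% without it). ADCY5, an adenylyl cyclase, averaged 2.56 ± 0.0860 CPM with knockdown and 0.872 ± 0.102 CPM in control (SD, n = 3 each), a log2 fold change of 1.55 (SE 0.18, adjusted p = 7.0e-07). The more abundant cyclase genes ADCY6 and ADCY9 were lower, at -0.25 (adjusted p = 0.0012) and -0.18 (adjusted p = 0.011). ADCY9 did not pass after the GC correction, and ADCY3 and ADCY7 did not pass under either. ARHGEF12, an activator of RHOA driven by the products of GNA12 and GNA13, averaged 283 ± 5.20 CPM with knockdown and 381 ± 18.3 CPM in control, a log2 fold change of -0.43 (SE 0.05, adjusted p = 4.7e-07). ROCK1 and ROCK2, kinases activated by RHOA, were higher by 0.36 (adjusted p = 2.6e-05) and 0.56 (adjusted p = 8.6e-09). RHOA itself had a log2 fold change of 0.06 (adjusted p = 0.40).

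**Figure D4:**
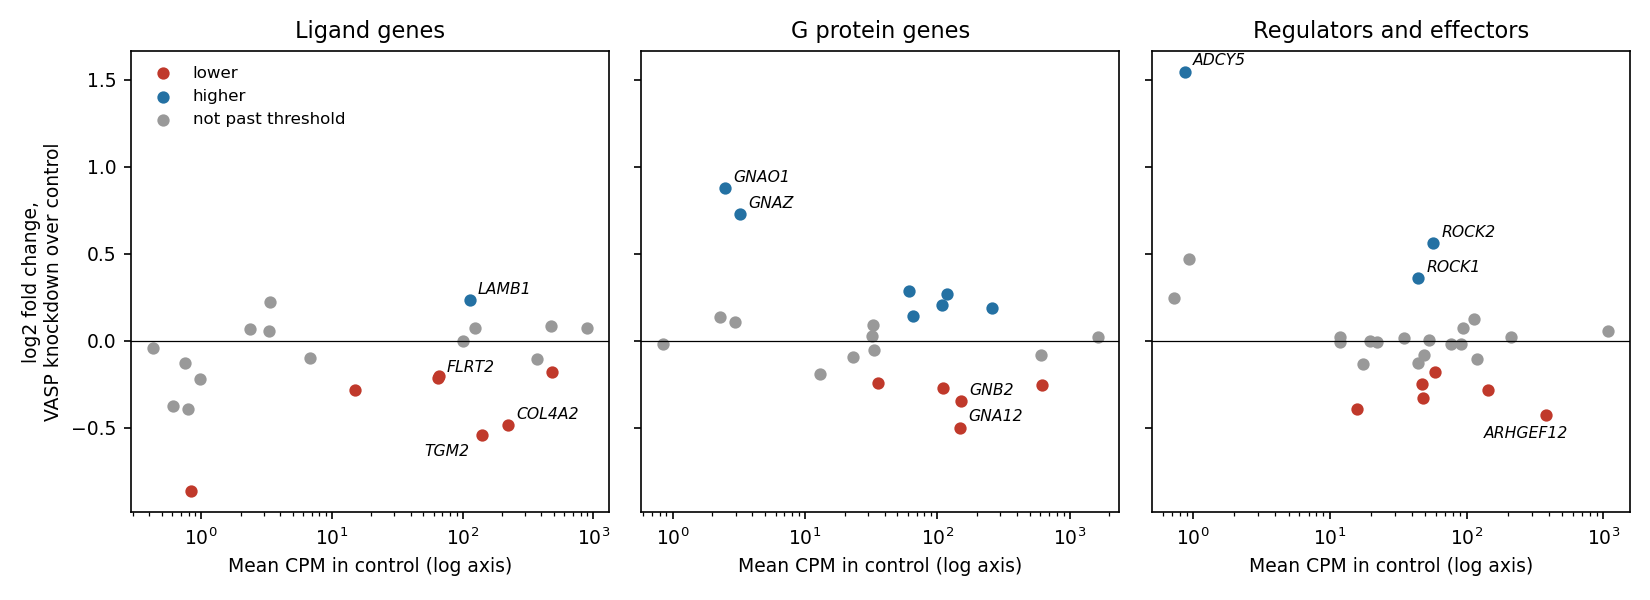
Log2 fold change, VASP knockdown over control, against the mean CPM in control (log axis) for the tested ligand genes (22), G protein genes (22) and regulator and effector genes (27). Colours mark genes past an adjusted p of 0.05, and the 4 genes of each panel with the smallest p are labelled. ADCY5, at 1.55, lies highest of all 3 panels.

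The nearest tested protein-coding genes on each side of the receptors numbered 14, of which 5 were higher and 4 were lower (64.3%, against 37.2% of all genes). Their distances ran from 73 bases (DDX39A from ADGRE5) to 4582900 bases (TTLL7 from ADGRL4), so no local effect is read from this share. None of the 14 reached a log2 fold change of 1 in size. Beside the ADGRF1 and ADGRF5 pair, TNFRSF21, which encodes death receptor 6, had 257, 249 and 234 CPM with knockdown, against 488, 434 and 405 CPM in control. Its log2 fold change was -0.84 (SE 0.06, adjusted p = 7.5e-10) and -0.79 after the GC correction. On the other side of the pair, TDRD6, a germ-line gene, had a log2 fold change of -0.58 at few fragments (adjusted p = 0.17), and passed at -0.82 without the third control library. Around ADGRF4, CD2AP, an adaptor that links membrane proteins to actin, was higher by 0.31 (adjusted p = 7.5e-05), and CENPQ, a kinetochore gene, was higher by 0.56 (adjusted p = 1.1e-06). CD2AP lies 58601 bases from ADGRF4, whereas CENPQ lies 1741349 bases away and is not an adjacent gene.

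A window of 1000 kb on each side of the ADGRF1 start was then examined, a width chosen after these values were seen. It held 12 tested genes, of which 7 were lower and 2 higher. Of the 9 that are not receptors of the family, 5 were lower and 2 higher, that is 55.6% lower against 18.3% over all tested genes. CYP39A1, an oxysterol hydroxylase, was lower, with a log2 fold change of -0.98 (SE 0.16, adjusted p = 3.9e-05). The log2 fold change was -0.58 for the calcineurin inhibitor RCAN2 (adjusted p = 0.00021), -0.58 for CLIC5 (adjusted p = 0.0017) and -0.34 for SLC25A27 (adjusted p = 0.00081). ENPP4 was higher by 0.33 (adjusted p = 0.00039). Beyond ADGRF1, TNFRSF21 was the only gene that passed as lower, and CD2AP was higher. The other lower genes outside the pair lay beyond ADGRF5, on the side that also held ENPP4. Every lower gene outside the pair fell by less than ADGRF1 and ADGRF5, which were selected on this comparison, so nothing is read from that order.

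**Figure D5:**
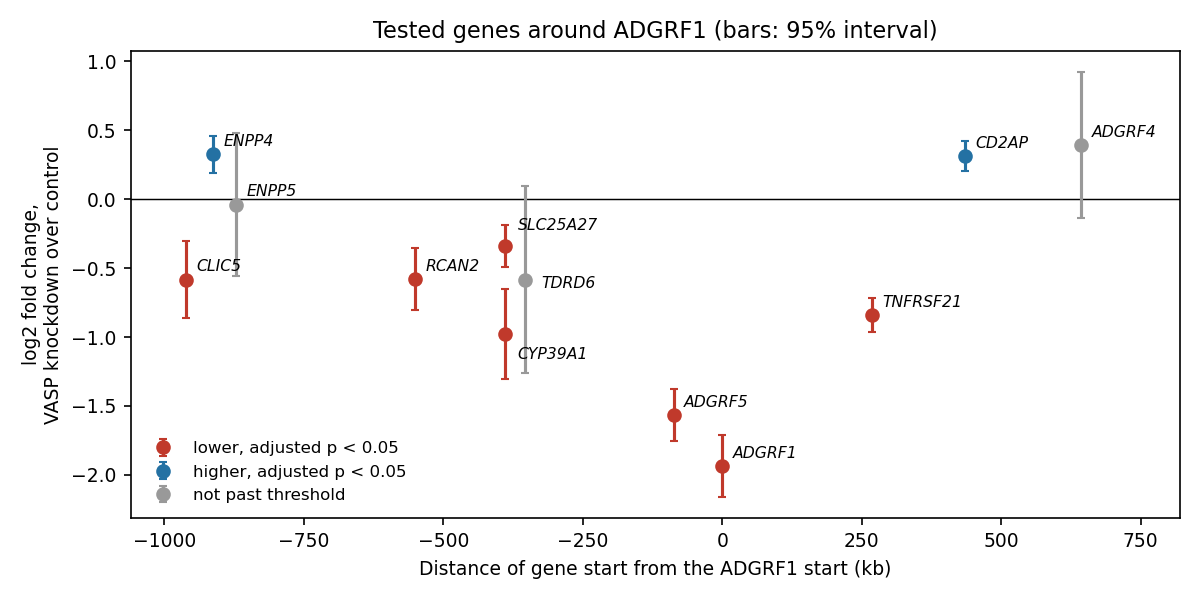
Log2 fold change, VASP knockdown over control, of the 12 tested genes within 1000 kb of the ADGRF1 start, by distance in kb between starts. Bars are 95% intervals and colours mark calls at an adjusted p of 0.05. ADGRF1 (-1.94) and ADGRF5 (-1.57) lie lowest, and ADGRF4, CD2AP and ENPP4 lie above zero.

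The genes whose pattern over the 6 libraries was most like that of ADGRF1 were sought among 11291 protein-coding genes with a mean log2 CPM of 1 or more. Log2 CPM was taken here after adding 0.5 CPM. Likeness was the root mean square difference of log2 CPM, after centring each gene on its own mean, and it rests largely on the difference between the groups. FKBP9, a prolyl isomerase of the endoplasmic reticulum, came first at 0.139, PDE7B, a cyclic AMP phosphodiesterase, at 0.211 and P3H2, a collagen prolyl hydroxylase, at 0.230. ADGRF5 stood at 0.159, with only FKBP9 closer. ADGRF1 and ADGRF5 were both selected on the difference between the groups, so nothing is read from this rank. FKBP9 averaged 32.1 ± 0.772 CPM with knockdown and 99.7 ± 1.17 CPM in control (SD, n = 3 each). PDE7B averaged 2.67 ± 0.314 CPM with knockdown and 8.59 ± 1.82 CPM in control, and P3H2 17.6 ± 1.06 CPM and 46.0 ± 3.20 CPM in the same order.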

How the data were processed

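Bulk RNA from 3 VASP knockdown and 3 control libraries of MDA-MB-231 cells was analysed from raw fragment counts per gene symbol, which the authors deposited in 1 table. Per the file headers, fragments were counted by featureCounts 1.6.4 (paired-end) over exons of GENCODE release 32, including patches, on GRCh38. Per the submitters' processing notes, Trim Galore 0.6.4 and STAR 2.7.1a were used. The header shows no strand, multi-mapping or multi-overlap option, so at the defaults antisense fragments count with a gene, and fragments shared between genes or alignments are dropped.

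All control columns have names built on 1 control title, so they were matched to the control group only and numbered in table order, and they could be repeats of 1 culture. Separate cultures are stated for neither group. The p-values therefore reflect only library-to-library spread, possibly technical. Chi-square over degrees of freedom, across genes, was 5.11 to 8.67 for library pairs of the same group and 19.3 to 25.3 for pairs of different groups, so no library was merged with another.

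CPM was computed with TMM scaling. Genes were filtered with filterByExpr and tested with the quasi-likelihood test of edgeR 4.0.16 in R 4.3.3 (two-sided, Benjamini-Hochberg over 16633 genes, threshold 0.05). The biological coefficient of variation was 4.81%. Standard errors were taken from the fold change and its F statistic. DESeq2 1.42.0, its size factors, other filters, leaving out each library, and a per-library spline (5 degrees of freedom) for GC content and length were alternatives. GC content came from the longest transcript in GENCODE 29 and covered 97.3% of tested genes. Intervals on counts cover counting error only.

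The receptors and the gene lists were chosen with earlier results of these data known. The genes named were VASP, the 10 receptors, the tested family genes, the up to 4 passing genes of lowest p in each list, the neighbours of the ADGRF genes, and the 3 genes most like ADGRF1. CD55, PRNP, LAMA2, LAMC1, COL4A1, GNA13, GNAS and RHOA were named outside this rule, after their values were seen. So were ADCY3, ADCY6, ADCY7, ADCY9 and the genes of the window around ADGRF1.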

Additional observations from a re-analysis of the deposited data

How the results depend on the processing

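All 66 recomputed counts of calls (the 6 counts of the report under 11 alternatives) stayed within 1.5 times their values. Over all genes the count was 6187, and 4481 to 6399 with single libraries left out, 5165 with the DESeq2 Wald test, 6102 without a filter and 4780 with the GC correction. Of the 8 tested receptors, 4 passed with the GC correction, where ADGRE5 was lost at -0.12, and 5 under each other alternative. Without the first control library those 5 held ADGRF4 (0.74) in place of ADGRL2 (-0.17). ADGRF1 ranged from -2.00 to -1.85 and ADGRF5 from -1.63 to -1.47, and both passed under all 11 alternatives. Both were selected on this comparison in these same libraries, so the passes are no further evidence of a difference. Of 436 recomputed single-gene values, no value past the threshold turned its direction, and 15 no longer passed, the receptors ADGRE5 and ADGRL2 each under 1 alternative. Another 6 values passed that did not pass in the main fit. The cause of these changes was not tested. The GC correction moved the higher and lower calls over all genes to 2850 and 1930, against 3148 and 3039. No paired analysis was possible because the control columns carry no replicate numbers that match the labels, so the replicate block was not run. Depth limits ADGRF4, ADGRL1 and ADGRL4, whose counts were 34 or fewer in every library.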

Other observations

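The 3′ UTRs of the receptors were searched for the word GTCGTC, which was looked at because its carriers were known to be lower more often in these data. Of 771 tested genes with the word in an annotated 3′ UTR, 40.3% were lower after knockdown, against 19.1% of 11897 without it. These calls were not corrected for GC content, and median log2 fold changes ran from 0.18 in the lowest GC decile to -0.24 in the highest. The part of GC content or 3′ UTR length in these shares was not tested. Among the 10 receptors the word stood in the 3′ UTR of ADGRF4 alone, whose log2 fold change was 0.39 and did not pass the threshold. ADGRF1 carried it nowhere in its transcript and ADGRF5 carried it outside the 3′ UTR.

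Some genes known from endothelium were present in these cancer cells beside counts of 2 or fewer for ADGRL4. ESAM, an adhesion molecule of endothelial junctions, averaged 203 ± 1.29 CPM with knockdown and 201 ± 7.32 CPM in control (SD, n = 3 each). ROBO4, a guidance receptor of vessels, averaged 32.7 ± 1.03 CPM with knockdown and 34.6 ± 2.46 CPM in control. KDR, a receptor for vascular endothelial growth factor, averaged 3.94 ± 0.280 CPM with knockdown and 3.94 ± 0.0690 CPM in control, and of ESAM, ROBO4, KDR and PECAM1 the last alone passed the threshold (log2 fold change -0.46, edgeR adjusted p = 0.026).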
